A study of Mus musculus with 24 samples.

Results

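A group of 10 genes, of DNA methylation and the Lin28 pair, was followed across 8 mouse cell types measured on microarrays. They are the DNA methyltransferase genes Dnmt1, Dnmt3a and Dnmt3b, their partners Dnmt3l and Uhrf1, the dioxygenase genes Tet1, Tet2 and Tet3, and the RNA-binding protein genes Lin28a and Lin28b. The genes were taken from a list by name, and the probeset with the highest mean level among those assigned to that gene alone stood for each. All 10 were measured, among 18820 genes with such a probeset.

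In mammals DNA methylation sits mostly on the cytosine of CG pairs. DNMT3A and DNMT3B add it to unmethylated DNA, DNMT3L has no catalytic activity and stimulates them, and DNMT1, brought to newly copied DNA by UHRF1, restores it on the new strand after replication. The TET enzymes oxidise methylcytosine, from which it can be lost by dilution or by base excision repair. LIN28A and LIN28B bind precursors of the let-7 microRNAs and block their maturation. Pluripotent cells are known for high DNMT3B, DNMT3L, TET1 and LIN28A, and blood cells for their dependence on DNMT3A and TET2.

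The 24 arrays held 3 samples each of induced pluripotent stem cells (iPSC), microglia-like cells made from such cells (iPS-MG), microglia from mice at postnatal day 5 (neo-MG) and from adults (ad-MG), neural stem cells taken between embryonic days 15 and 18 (NSC), macrophages of the bone marrow (bm-Mac) and the peritoneum (p-Mac), and dendritic cells (DC). The iPSC, the iPS-MG and both groups of microglia were C57BL/6NCr - Cx3cr1gfp/+, that is, gfp replaced Cx3cr1 on 1 chromosome copy, and the DC, NSC, bm-Mac and p-Mac were C57BL/6NCr, so this allele cannot be told apart from cell type between those sets. The iPSC grew with leukaemia inhibitory factor on a feeder layer of inactivated mouse embryonic fibroblasts. The cytokines IL-3, GM-CSF and M-CSF were given to cells called gMG, an undefined name, and the remaining cells were kept in DMEM/F12 with defined serum. The labels do not say that the iPS-MG came from the iPSC on these arrays, nor whether the 3 samples of a group were separate animals or cultures. All p-values therefore rest on a sample-to-sample spread that may be technical. In such bulk RNA, fewer cells of a type and less RNA per cell cannot be told apart.

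Values are log2 RMA values, 1 unit being 2-fold, and array medians lay between 7.96 and 8.21, highest in p-Mac. The mean level of 13 pluripotency markers was 11.99 to 12.01 in iPSC arrays and 7.01 to 7.37 in all others, and that of 10 neural progenitor markers was 10.67 to 10.75 in NSC against at most 8.87 elsewhere. The mean of 12 pan-myeloid markers was 11.91 to 12.81 in the myeloid arrays against 7.10 to 7.99 in NSC and iPSC. That of 9 microglia markers was 10.38 to 10.40 in iPS-MG, 10.29 to 10.38 in neo-MG, 10.88 to 11.07 in ad-MG and at most 9.01 elsewhere. For 8 peritoneal macrophage markers it was 11.59 to 11.65 in p-Mac and at most 8.61 elsewhere. The mean of 10 dendritic cell markers did not set DC apart, at 9.64 to 9.68 in DC, 9.66 to 9.72 in bm-Mac and 9.41 to 9.57 in p-Mac, and 7.16 to 8.12 in the other arrays. Of these markers, 3 were higher and 2 lower in DC than in bm-Mac. Beside these labels, 10 fibroblast markers averaged 10.89 to 11.05 in ad-MG, 9.03 to 9.10 in iPSC and 7.68 to 8.51 in the others. Likewise, 10 neutrophil and progenitor markers averaged 10.02 to 10.12 in bm-Mac and at most 7.64 elsewhere. No array value was 0, and no detection calls were used, so no gene could be called absent.

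The sequence before the start of a gene is where promoter methylation would lie, and CG pairs, the substrate of these enzymes, are therefore shown in capitals for 4 genes that were highest in iPSC. The bases come from the RefSeq promoter table (GRCm38.p6, 5′ to 3′) and end at the gene's own span, so that no transcribed part of that gene is printed.
Dnmt3l, chr10:78042037-78042286, plus strand: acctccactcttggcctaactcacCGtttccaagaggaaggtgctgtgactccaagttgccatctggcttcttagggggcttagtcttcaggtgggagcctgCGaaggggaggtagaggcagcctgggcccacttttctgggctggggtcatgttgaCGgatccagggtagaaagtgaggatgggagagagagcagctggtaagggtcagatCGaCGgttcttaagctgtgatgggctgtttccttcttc
Dnmt3b, chr2:153649199-153649410, plus strand: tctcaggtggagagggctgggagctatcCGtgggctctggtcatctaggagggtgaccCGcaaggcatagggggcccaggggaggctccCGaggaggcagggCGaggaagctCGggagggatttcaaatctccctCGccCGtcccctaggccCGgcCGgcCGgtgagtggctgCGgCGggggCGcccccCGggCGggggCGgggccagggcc
Tet1, chr10:62887470-62887574, minus strand: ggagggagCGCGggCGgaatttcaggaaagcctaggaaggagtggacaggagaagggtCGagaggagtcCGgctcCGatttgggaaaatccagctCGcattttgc
Uhrf1, chr17:56303087-56303336, plus strand: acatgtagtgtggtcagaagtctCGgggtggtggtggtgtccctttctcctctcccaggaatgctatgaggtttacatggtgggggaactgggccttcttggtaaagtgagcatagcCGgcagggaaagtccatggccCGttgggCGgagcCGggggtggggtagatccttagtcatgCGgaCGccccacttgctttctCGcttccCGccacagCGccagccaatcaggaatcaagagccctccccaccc
CG pairs were also counted in the table's whole windows of 250 bases before a start, at the outermost start it lists for each gene. The windows of Dnmt1, Dnmt3l and Uhrf1 lay wholly before the gene's RefSeq span and held 2, 5 and 10 CG pairs. Those of Dnmt3b and Tet1 ran into it and held 21 and 15, of which 16 and 7 lay in the 212 and 105 bases before the span. The windows of the other 5 genes lay inside the span, since it begins farther out than the starts in the table, and may hold transcribed bases. They held 7 CG pairs for Lin28a, 6 for Lin28b, 17 for Tet3, 38 for Dnmt3a and 51 for Tet2. Over all 32851 windows of the table, whose place in their genes was not examined, the median was 6 with quartiles of 2 and 16, and 1.88% held at least 38 and 0.067% at least 51. The table lists further windows for 4 genes, which held 7 and 26 CG pairs for Dnmt1, 30 for Uhrf1, 40 and 15 for Dnmt3a, and 4 and 3 for Dnmt3l, and which start was in use was not measured. Both strands were searched for GGGCGG, found in 32.7% of all windows, CACGTG, found in 6.02%, and ATGCAAAT, found in 1.6%. In the outermost windows, GGGCGG occurred in those of Dnmt3a, Dnmt3b, Uhrf1, Tet1, Tet2 and Tet3, CACGTG in that of Lin28b, and ATGCAAAT in none of the 10. Methylation itself was not measured.

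The comparison of iPS-MG with iPSC sets the microglia-like cells beside pluripotent cells. Dnmt3b, Dnmt3l, Uhrf1, Tet1, Tet2, Lin28a and Lin28b were lower in iPS-MG, Dnmt3a and Tet3 were higher, and Dnmt1 differed by less than 2-fold. Thus 2 of the 10 were called higher and 7 lower, a call being an adjusted p under 0.05 in limma with at least a 2-fold difference; of all genes, 10.4% were called higher and 11.8% lower (22.2% in all). The median log2 difference was -1.81 over the 10 genes and 0.02 over all genes. NSC against iPSC shares the iPSC arrays, and gave 1 higher and 6 lower, where 7.25% and 9.97% of all genes were called (17.2% in all), with a median of -1.41 over the 10 genes and 0.03 over all. Of the fibroblast markers, 2 of 10 were lower in iPS-MG and 5 of 10 in NSC than in iPSC, and their part in these differences was not tested.

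**Figure D1:**
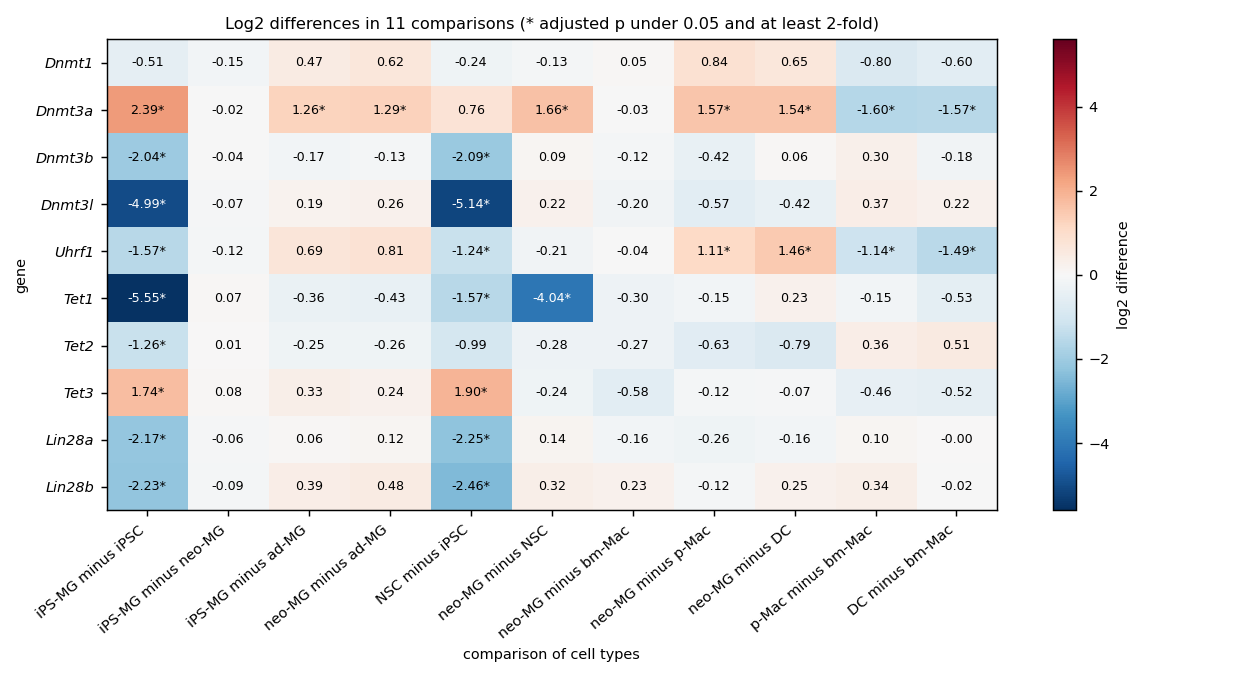
Log2 differences of the 10 genes (rows) in 11 comparisons (columns), with colour from blue (lower in the first-named cell type) to red (higher) and an asterisk for an adjusted p under 0.05 with at least a 2-fold difference. The widest difference, -5.55 for Tet1, stands in the column of iPS-MG minus iPSC, and the column of iPS-MG minus neo-MG has no asterisk.

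Between iPS-MG and neo-MG none of the 10 genes was called by limma, where 0.0266% of all genes were (5 genes, all higher in iPS-MG). The adjusted p-values ran from 0.7 for Dnmt1 to 0.996 for Tet2, and only Dnmt1 had an unadjusted p under 0.05, as did 6.51% of all genes, so that 1 of 10 is near the background. Without the 2-fold minimum 0 of the 10 and 0.213% of all genes were called. Dnmt1 read 11.23, 11.26 and 11.25 on the neo-MG arrays, and on those of iPS-MG 11.16, 11.04 and 11.08. The difference of Dnmt1 was -0.15 ± 0.0606 (SE), with a 95% interval from -0.28 to -0.03. No 95% interval of the 10 genes reached beyond 0.28 on the log2 scale in either direction.

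Of the de novo methyltransferases, Dnmt3a separated the myeloid cells into a high and a low set. Its 3 arrays read 11.27, 11.34 and 11.29 in bm-Mac. Those of neo-MG read 11.19, 11.35 and 11.29, and those of iPS-MG 11.35, 11.12 and 11.29, with overlapping ranges in all 3. The p-Mac arrays read 9.69, 9.68 and 9.74, those of DC 9.73, 9.72 and 9.75, and those of ad-MG 9.98, 9.97 and 10.02. NSC gave 9.62, 9.68 and 9.56, and iPSC 8.77, 8.92 and 8.90. The high 3 cell types overlapped each other, lay 1.26 above ad-MG in the group means with no overlap, and the iPSC arrays lay below every other. Neighbours from DC through p-Mac to NSC overlapped.

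Dnmt3a was 5.24-fold higher in iPS-MG than in iPSC (log2 difference 2.39 ± 0.0626 SE, adjusted p = 1.1e-21). Within microglia it was 2.44-fold higher in neo-MG than in ad-MG (1.29 ± 0.0626, adjusted p = 3.25e-15), the only 1 of the 10 called there, where 1.28% of all genes were called higher and 4.43% lower (5.71% in all). The iPS-MG, set against the same ad-MG arrays, gave 1.26 (2.4-fold, adjusted p = 5e-15), again the only call, with 1.20% of all genes called higher and 4.28% lower (5.48% in all). In both comparisons 10 of 10 fibroblast markers were called lower than in ad-MG, and the part of such cells in the Dnmt3a difference was not tested.

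Among the other myeloid cells, Dnmt3a was 3.03-fold lower in p-Mac and 2.97-fold lower in DC than in bm-Mac (log2 differences of -1.60 and -1.57, SE 0.0626 each, adjusted p = 3.74e-17 and 3.89e-17). Uhrf1 was the other gene called in both, so that 2 of the 10 were lower and 0 higher in each; 4.44% of all genes were called lower and 1.73% higher in p-Mac (6.17% in all), and 4.67% and 3.41% in DC (8.08% in all). In neo-MG, Dnmt3a was 2.97-fold higher than in p-Mac and 2.91-fold higher than in DC. There too Uhrf1 was the other gene called higher and 0 were lower, beside 6.02% and 3.10% of all genes called higher and lower against p-Mac (9.12% in all) and 4.17% and 3.96% against DC (8.12% in all). These 4 comparisons share arrays. Centring each array on its median moved the share of higher genes among all those called from 66% to 79.4% for neo-MG minus p-Mac and from 42.2% to 52.4% for DC minus bm-Mac, with shifts of 0.209 and 0.122 in the median over all genes. The neutrophil and progenitor markers were lower than in bm-Mac for 8 of 10 in p-Mac and 9 of 10 in DC. Against neo-MG, 1 of 10 was higher in each of p-Mac and DC. The part of such cells in any of these differences was not tested. Of 9 B cell and T cell markers, whose mean was 8.48 to 8.66 in p-Mac, 8.45 to 8.50 in bm-Mac, 7.81 to 8.01 in DC and 7.72 to 7.76 in neo-MG, 2 were higher and 2 lower in p-Mac than in bm-Mac and 2 were lower in DC. In neo-MG 1 was higher and 3 were lower than in p-Mac, and 2 were higher and 1 lower than in DC. The B cell genes Cd79a and Ms4a1 were those higher in p-Mac than in bm-Mac (log2 differences of 1.85 and 2.26). The 2 genes lower in p-Mac belong to the same list, whose means were 8.54 in p-Mac and 8.47 in bm-Mac. As the list joins genes of B cells and of T cells, its mean does not speak for either alone. The part of B and T cells was not tested.

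Between neo-MG and bm-Mac, none of the 10 genes was called by limma, where 2.10% of all genes were called higher and 3.12% lower (5.23% in all) and 10 of 10 neutrophil and progenitor markers were lower in neo-MG. Of the 10, 5 had an unadjusted p under 0.05, as did 47.2% of all genes, and 4 an adjusted p under 0.05, as did 41.3% of all genes, so these shares are near the background. Among these Tet3 lay farthest apart, at -0.58 ± 0.0806 (SE). Dnmt3a differed by -0.03 ± 0.0626, with overlapping arrays.

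Dnmt3b and Dnmt3l were high in iPSC alone. Dnmt3b read 9.82, 9.91 and 9.96 in the iPSC arrays, and 7.71 to 8.36 in the other 21 arrays. Dnmt3l, the cofactor, read 11.59, 11.66 and 11.73 in iPSC and 6.35 to 7.43 in all others. No other array reached within 1 unit of the iPSC arrays for either gene. Dnmt3b was 4.11-fold lower in iPS-MG (-2.04 ± 0.067 SE, adjusted p = 1.38e-19) and 4.24-fold lower in NSC. Dnmt3l was 31.8-fold lower in iPS-MG (-4.99 ± 0.0854, adjusted p = 1.69e-25) and 35.3-fold lower in NSC. Outside iPSC, the order of Dnmt3b had a clear step only below p-Mac, whose 8.28, 8.36 and 8.30 lay above the ad-MG mean of 8.02 with no overlap, and from ad-MG down to NSC each neighbour overlapped the next. After centring each array on its median, the excess of Dnmt3b in p-Mac over bm-Mac shrank from 0.30 to 0.19, and that of Dnmt3l from 0.37 to 0.27.

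**Figure D2:**
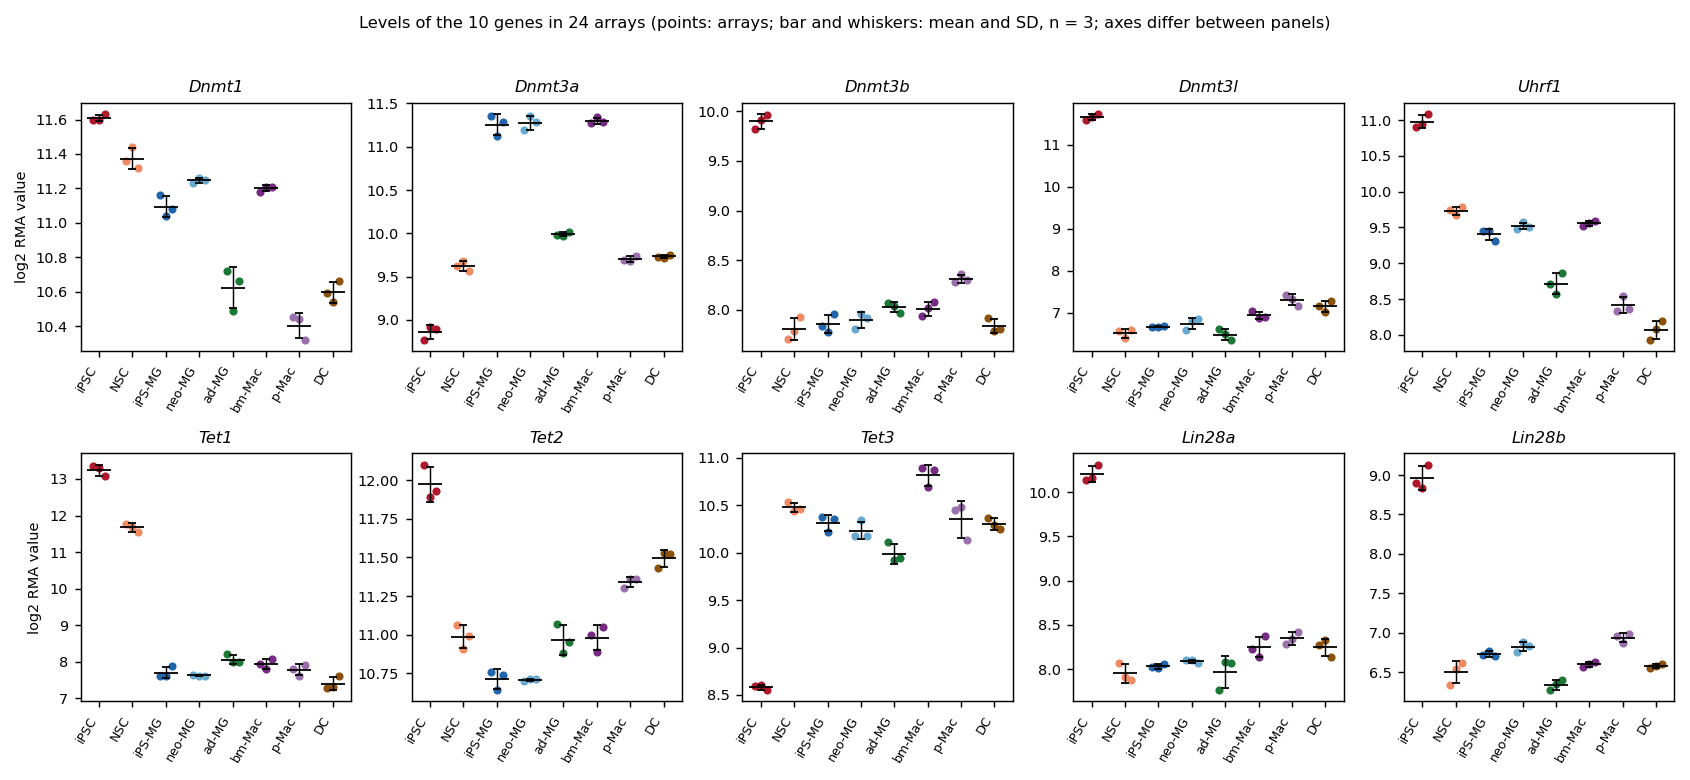
Log2 RMA values of the 10 genes, 1 panel each with its own axis; points are arrays, bars means and whiskers SD (n = 3). Dnmt3b, Dnmt3l, Lin28a and Lin28b stand high in iPSC alone, Tet1 in iPSC and NSC, and Dnmt3a in iPS-MG, neo-MG and bm-Mac.

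The maintenance pair Dnmt1 and Uhrf1 was graded across the cell types instead. Dnmt1 read 11.60, 11.60 and 11.63 in iPSC, 11.36, 11.44 and 11.32 in NSC, 11.18, 11.21 and 11.21 in bm-Mac, and 10.45, 10.44 and 10.32 in p-Mac, the lowest group. Uhrf1 read 10.90, 10.95 and 11.08 in iPSC, 9.75, 9.67 and 9.78 in NSC, 9.52, 9.56 and 9.59 in bm-Mac, and 7.93, 8.08 and 8.19 in DC, its lowest group. Between these lay the Dnmt1 arrays of ad-MG, at 10.72, 10.49 and 10.66, and of DC, at 10.59, 10.54 and 10.66, and the Uhrf1 arrays of iPS-MG, at 9.45, 9.45 and 9.31, and of p-Mac, at 8.34, 8.54 and 8.36. The whole range of group means was 1.21 for Dnmt1 (2.31-fold) and 2.91 for Uhrf1 (7.53-fold). In the order of Dnmt1 only ad-MG and DC overlapped as neighbours, and in that of Uhrf1 only bm-Mac and neo-MG. Uhrf1 was 2.98-fold lower in iPS-MG than in iPSC (-1.57 ± 0.0769 SE, adjusted p = 6.69e-16), while Dnmt1 was 1.43-fold lower (-0.51 ± 0.0606, adjusted p = 2.85e-08), short of the 2-fold limit.

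Among myeloid cells, Uhrf1 was 2.21-fold lower in p-Mac (-1.14 ± 0.0769 SE, adjusted p = 2.35e-12) and 2.81-fold lower in DC (-1.49 ± 0.0769, adjusted p = 7.63e-15) than in bm-Mac. Its excess in neo-MG was 2.15-fold over p-Mac and 2.74-fold over DC. Over ad-MG it was 0.81 ± 0.0769 (adjusted p = 2.17e-09), under the 2-fold limit, with 9.48, 9.57 and 9.51 in neo-MG and 8.71, 8.57 and 8.86 in ad-MG. Dnmt1 was not called in any of the 11 comparisons. Its widest difference, 0.84 ± 0.0606 in neo-MG over p-Mac, became 1.05 and was called (adjusted p = 8.63e-14) once each array was centred on its median. A second quantile normalization of the arrays moved it the other way, to 0.69, which was not called.

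These 2 genes were set beside 27 measured cell cycle genes, such as the replication helicase genes Mcm2 and Mcm5 and the mitotic kinase genes Aurka, Plk1 and Bub1. The mean level of the list was 11.72 to 11.74 in iPSC arrays, 11.14 to 11.20 in NSC, 10.28 to 10.40 in bm-Mac, neo-MG and iPS-MG, and 9.62 to 9.98 in ad-MG. It was 8.89, 8.88 and 9.0 in DC and 8.17 to 8.21 in p-Mac. Over the 8 cell type means, Pearson's r with the list was 0.954 for Dnmt1 and 0.919 for Uhrf1; without iPSC and p-Mac, the 2 cell types farthest from the median, it was 0.9 and 0.95 over 6. These are descriptions over cell types that share 1 normalization. Dnmt3a gave -0.0615 over all 8 types, and 0.885 over the 6 myeloid types, in which its order was that of the list. Tet2 gave 0.0622 over 8 and -0.862 over the 6.

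In the tested comparisons Dnmt3a did not always take the direction of the list. In iPS-MG, 19 of 27 cell cycle genes were lower than in iPSC and 0 higher, with Cenpf at -2.78 and Cdc20 at -2.40 the lowest and Pcna at 0.40 and E2f1 at 0.13 the highest, while Uhrf1 was lower and Dnmt3a higher. In neo-MG, 12 of 27 were lower than in NSC and 0 higher, while Dnmt3a was higher. Dnmt1, at -0.13, and Uhrf1, at -0.21, also lay below NSC there and were not called. Against bm-Mac, 24 of 27 were lower in p-Mac and 20 of 27 in DC, and in neo-MG 23 and 17 of 27 were higher than in p-Mac and DC. Between neo-MG and ad-MG, 3 of 27 were called, all higher in neo-MG, and between neo-MG and bm-Mac 0 were called. Whether the levels of Dnmt1, Uhrf1 and Dnmt3a follow the share of dividing cells was not tested.

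**Figure D3:**
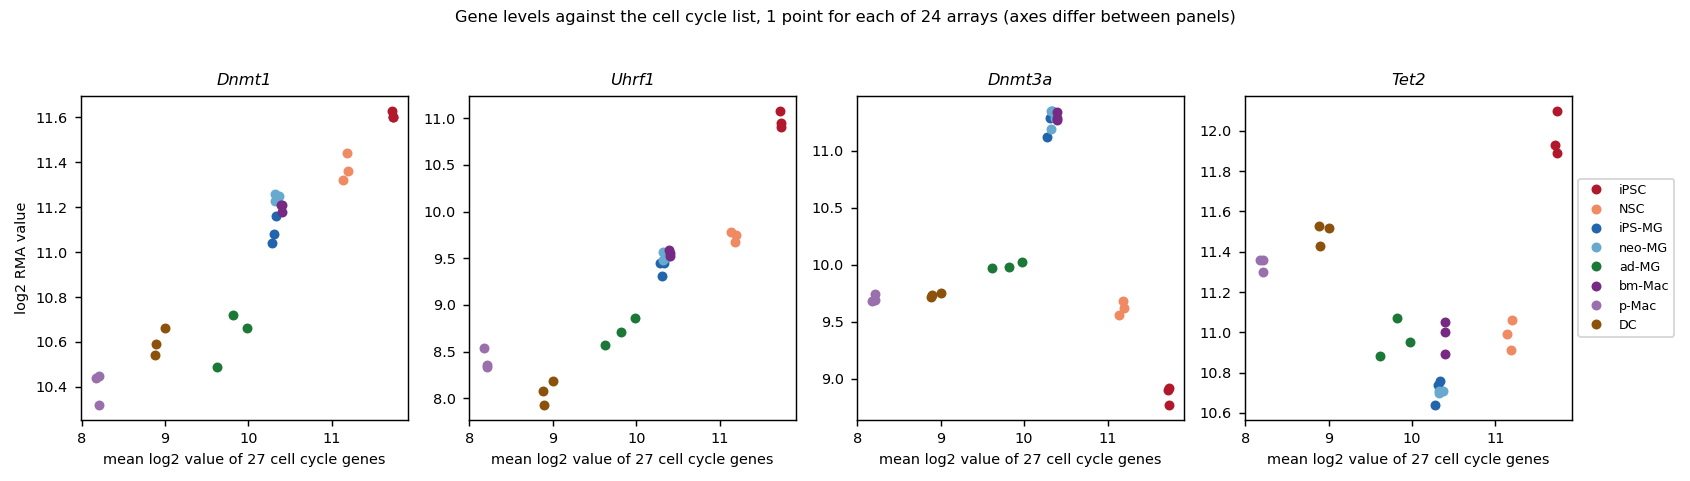
Log2 RMA value of Dnmt1, Uhrf1, Dnmt3a and Tet2 (y axes, differing between panels) against the mean log2 value of 27 cell cycle genes (x axis), 1 point for each of 24 arrays, coloured by cell type. Dnmt1 and Uhrf1 climb along the list from p-Mac and DC to iPSC, while Dnmt3a is high at the middle of the axis and lowest in iPSC.

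The 3 Tet genes had 3 patterns. Tet1 read 13.35, 13.30 and 13.07 in iPSC and 11.78, 11.69 and 11.55 in NSC, while the 18 myeloid arrays read 7.27 to 8.20. It was 46.7-fold lower in iPS-MG than in iPSC (-5.55 ± 0.0998 SE, adjusted p = 4.46e-25), the widest difference of the 10 genes in that comparison. In NSC it was 2.97-fold lower than in iPSC (-1.57 ± 0.0998, adjusted p = 2.36e-13), and in neo-MG 16.5-fold lower than in NSC (-4.04 ± 0.0998, adjusted p = 2.89e-22). The neural stem cells were thus the only group besides iPSC more than 3 units above the myeloid cells. Its 3 probesets gave -5.55, -5.56 and -5.97 for iPS-MG minus iPSC and -1.57, -2.10 and -1.94 for NSC minus iPSC. In neo-MG against NSC, Tet1 was the 1 gene called lower and Dnmt3a, at 1.66 ± 0.0626 (3.15-fold), the 1 called higher, beside 8.72% and 10.5% of all genes (19.2% in all).

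Tet2 read 12.10, 11.89 and 11.93 in iPSC, 11.43, 11.53 and 11.52 in DC, and 11.30, 11.36 and 11.36 in p-Mac. The lowest groups were iPS-MG with 10.76, 10.64 and 10.74, and neo-MG with 10.70, 10.71 and 10.71, which overlapped. NSC, bm-Mac and ad-MG, with means of 10.99, 10.98 and 10.97, also overlapped as neighbours. Tet2 was 2.39-fold lower in iPS-MG than in iPSC (-1.26 ± 0.0661 SE, adjusted p = 3.18e-15). In NSC it was 1.98-fold lower (-0.99 ± 0.0661, adjusted p = 6.94e-13), just under the limit, which it passed at -1.01 to -1.03 in 3 of the fits with an array left out. Among myeloid cells its differences stayed under 2-fold, the widest being -0.79 ± 0.0661 for neo-MG minus DC (adjusted p = 1.48e-10).

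Tet3 ran opposite to the genes that were high in iPSC alone. Its arrays read 8.59, 8.60 and 8.55 in iPSC, the lowest group, and 10.89, 10.69 and 10.87 in bm-Mac, the highest, while the other 18 arrays read 9.92 to 10.53. It was 3.34-fold higher in iPS-MG than in iPSC (1.74 ± 0.0806 SE, adjusted p = 2.22e-16) and 3.73-fold higher in NSC (1.90 ± 0.0806, adjusted p = 4.79e-17). Neighbours from NSC down to neo-MG overlapped. A further probeset of Tet3 gave 1.80 and 1.41 for these 2 comparisons.

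Lin28a and Lin28b were both high in iPSC alone. Lin28a read 10.14, 10.16 and 10.31 there and 7.76 to 8.42 in the other 21 arrays, and Lin28b read 8.90, 8.84 and 9.13 against 6.27 to 6.98. Lin28a was 4.51-fold lower in iPS-MG (-2.17 ± 0.0804 SE, adjusted p = 1.75e-18) and 4.77-fold lower in NSC. Lin28b was 4.68-fold lower in iPS-MG (-2.23 ± 0.0715, adjusted p = 8.55e-20) and 5.48-fold lower in NSC. A dimmer probeset of Lin28a gave only -0.53 and -0.40, and the mean of both probesets gave -1.35 for iPS-MG minus iPSC. Among the non-pluripotent cells the widest tested difference of Lin28a was -0.26 for neo-MG minus p-Mac. It shrank to -0.05 after centring each array on its median and to -0.07 after a second quantile normalization. Lin28b lay between 6.76 and 6.88 in neo-MG and between 6.27 and 6.40 in ad-MG, a difference of 0.48 ± 0.0715 (adjusted p = 3.58e-06 in limma).

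Since LIN28 proteins act on let-7 precursors, the 12 measured let-7 family precursor genes were examined with them. Of these, 11 had a mature 5p sequence in the RefSeq miRNA table, and all 11 shared the seed GAGGUAG (bases 2 to 8, in capitals), by which the family recognises its targets. The 5 shown are those of the precursors called in iPS-MG or NSC against iPSC or in DC against bm-Mac.
let-7a-5p: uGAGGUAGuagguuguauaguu
let-7c-5p: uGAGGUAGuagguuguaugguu
let-7d-5p: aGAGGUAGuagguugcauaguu
let-7f-5p: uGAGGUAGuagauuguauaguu
miR-98-5p: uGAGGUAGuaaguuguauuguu
The probesets report RNA of the precursor region, and the mature RNAs, which LIN28 lowers, were not measured here.

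The precursors that were called did not all move in 1 direction. In iPS-MG against iPSC, 1 of 12 was higher and 2 were lower, where 10.4% and 11.8% of all genes were. In NSC 2 were higher and 1 lower, where 7.25% and 9.97% of all genes were. Mirlet7c-1 gave 5.10, 5.02 and 5.26 on the iPSC arrays, 6.86, 7.21 and 7.31 on those of iPS-MG, and 8.51, 8.37 and 8.25 on those of NSC. It was 4-fold higher in iPS-MG (2.00 ± 0.162 SE, adjusted p = 2.51e-11) and 9.5-fold higher in NSC (3.25 ± 0.162, adjusted p = 1.54e-15) than in iPSC. DC read 4.76, 5.15 and 4.83, overlapping iPSC and 7.98-fold lower than bm-Mac (-3.00 ± 0.162, adjusted p = 2.17e-14).

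Mir98, by contrast, was 2.66-fold lower in iPS-MG than in iPSC (-1.41 ± 0.0977 SE), and Mirlet7f-1 2.05-fold lower (-1.03 ± 0.108), while Mirlet7a-1, second to Mirlet7c-1, gave 0.36 and was not called. Mirlet7a-1 was 2.25-fold higher in NSC than in iPSC (1.17 ± 0.111), and Mirlet7f-1 2.03-fold lower there. The means of Mirlet7f-1 were 5.88 in iPSC and 4.85 in iPS-MG and in NSC, well below the array medians of 7.96 to 8.21. Those of Mirlet7c-1 in iPSC and DC, 5.13 and 4.91, were as dim, and no floor was measured for such levels. Mirlet7d was 3.23-fold lower in DC than in bm-Mac (-1.69 ± 0.111, adjusted p = 1.11e-12). It was also lower in neo-MG than in bm-Mac (-1.01 ± 0.111). None of the 12 was called between iPS-MG and neo-MG or between neo-MG and ad-MG, where 0.0266% and 5.71% of all genes were.

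Genes whose messages let-7 is known to target included some that were high in iPSC beside Lin28. Of 16 measured, 5 were lower and 2 higher in iPS-MG than in iPSC, and 7 lower and 3 higher in NSC. Of all genes, 11.8% were lower and 10.4% higher in iPS-MG, and 9.97% and 7.25% in NSC. Igf2bp1, an mRNA-binding protein gene, read 11.73, 11.63 and 11.72 in iPSC and 7.07 to 7.96 elsewhere, and was 19.1-fold lower in iPS-MG (-4.26 ± 0.0878 SE, adjusted p = 7.02e-24). Trim71, itself a stem cell RNA-binding protein gene, was 9.24-fold lower (-3.21 ± 0.0894), and Mycn 6.12-fold lower (-2.61 ± 0.0794). Tgfbr1, a receptor of TGF-beta, was 3.81-fold higher (1.93 ± 0.088).

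Other targets varied within the myeloid cells, where neither Lin28 gene was called. Igf2bp3 read 10.68, 10.85 and 10.81 in neo-MG, 8.96, 8.54 and 8.80 in ad-MG, and 6.83, 6.83 and 7.26 in p-Mac. It was 4.03-fold higher in neo-MG than in ad-MG (2.01 ± 0.106 SE, adjusted p = 1.82e-14), where Ccnd2, a cyclin D gene, was 7.38-fold lower in neo-MG (-2.88 ± 0.0613) beside the fibroblast markers. Hmga2, a chromatin protein gene, read 10.84, 10.77 and 10.91 in bm-Mac and at most 9.97 elsewhere. It was 3.27-fold lower in p-Mac and 4.01-fold lower in DC than in bm-Mac, where neutrophil and progenitor markers were also lower. Of the 13 genes of let-7 processing, 2 were lower in iPS-MG than in iPSC, Drosha (-1.79 ± 0.0699) and Xpo5 (-1.29 ± 0.0625), which cut and export precursors, and 0 were higher. Of all genes, 11.8% were called lower there and 10.4% higher. The highest of the 13 were Prkra, at 0.99, and Tut7 and Ago1, at 0.28 each, none of them called.

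**Figure D4:**
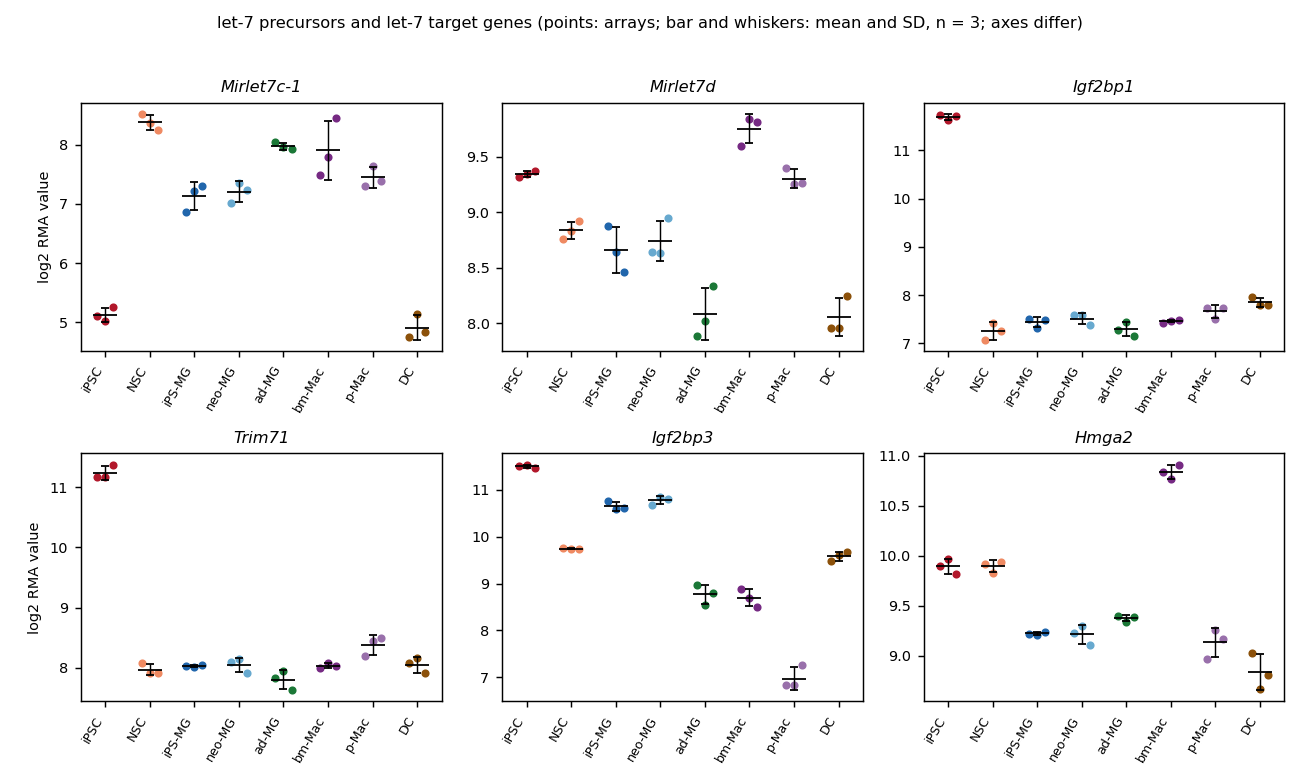
Log2 RMA values of 2 let-7 precursors and 4 let-7 target genes by cell type, with 1 axis a panel; points are arrays, bars means and whiskers SD (n = 3). Mirlet7c-1 is low in iPSC and DC, Igf2bp1 and Trim71 are high in iPSC alone, and Igf2bp3 and Hmga2 differ among the myeloid cells.

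Partners of the enzymes were counted in 4 lists beside the 10 genes. For all 4, the background is the share of all genes called. It was 10.4% higher and 11.8% lower in iPS-MG than in iPSC, and 7.25% and 9.97% in NSC than in iPSC. Against bm-Mac it was 1.73% higher and 4.44% lower in p-Mac, and 3.41% and 4.67% in DC. Of 17 partners in maintenance and silencing, 7 were lower in iPS-MG than in iPSC and 0 higher, with a median log2 difference of -0.82. Zfp57, which keeps methylation at imprinted genes, was 43.4-fold lower (-5.44 ± 0.0899 SE, adjusted p = 8.4e-26). Hells and Cdca7, which form a remodelling complex that DNA methylation depends on, were 7.5-fold and 6.86-fold lower (-2.91 ± 0.125 and -2.78 ± 0.096). Uhrf2 and Pcna had the highest differences, 0.84 and 0.40, and were not called. In NSC 6 of 17 were lower and 0 higher. Among myeloid cells, Hells was 4.59-fold lower in p-Mac and 2.4-fold lower in DC than in bm-Mac, and Cdca7 3.02-fold lower in p-Mac. Zfp57 was 3.51-fold lower in neo-MG than in ad-MG (-1.81 ± 0.0899), beside the fibroblast markers.

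The list of methyl-CpG readers held 7 genes from families of which some members bind the mark. Of these, 2 were higher in iPS-MG than in iPSC and 0 lower, namely Mbd2 (1.48 ± 0.0601 SE, 2.78-fold) and Zbtb4 (1.48 ± 0.0607, 2.79-fold). Zbtb38 and Mbd3 had the lowest differences, -0.27 and 0.06. In NSC, 1 of 7 was called, Zbtb38, which was 2.14-fold lower (-1.10 ± 0.0758). None of the 7 was called between any pair of myeloid cell types tested.

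Of 19 genes of demethylation and base excision repair, 3 were higher and 4 lower in iPS-MG than in iPSC. Apobec1, a cytidine deaminase gene, was 7.31-fold higher (2.87 ± 0.0555 SE), and Idh1 2.29-fold higher. The lowest were Parp1 (-1.57 ± 0.0669) and Lig3 (-1.16 ± 0.0731), which act in DNA break repair, and Tdg, which removes oxidised methylcytosine beside the TET enzymes, was 2.05-fold lower (-1.04 ± 0.0676). In NSC 1 was higher and 5 were lower, with Parp1 again 3.34-fold lower and Gadd45a 2.55-fold higher. Apobec1 was 3.04-fold lower there, opposite to iPS-MG.

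Of 10 genes of methyl donor metabolism, 6 were lower in iPS-MG than in iPSC and 0 higher, with a median of -1.48. Gldc, of the glycine cleavage system, was 29.9-fold lower (-4.90 ± 0.0796 SE, adjusted p = 6.09e-26), and Mthfd1, of folate metabolism, 6.8-fold lower (-2.77 ± 0.0715). Ahcy, which clears the methyltransferase product S-adenosylhomocysteine, was 3.61-fold lower (-1.85 ± 0.0744). The highest differences, 0.10 for Nnmt and -0.04 for Mtr, were not called. In NSC 4 of 10 were lower, Gldc by 3.84-fold. Against bm-Mac, 4 of 10 were lower in p-Mac, with Mthfd2 (-1.85) and Shmt2 (-1.34) the lowest, and 1 of 10 was called in DC, Mthfd2, which was 2.51-fold higher.

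Among all 18820 genes, those most like each of the 10 over the 8 cell type means were found by Pearson's r, as a description. For Uhrf1 they were Mcm5 (0.9902), Mcm3 (0.9875) and Chaf1a (0.9841), genes of replication and chromatin assembly, and for Dnmt1 Brip1 (0.9876), Incenp (0.9867) and Rad54l (0.9782). For Dnmt3l they were Hormad2 (0.9994), Slc44a4 (0.9989) and Lin28a (0.9988), for Lin28a Dnmt3l, Bspry (0.9980) and Slc44a4, and for Dnmt3b Urah (0.9971), Cldn7 (0.9959) and Glb1l2 (0.9956). Lin28b was closest to 4933402E13Rik (0.9990), Mir363 and M1ap, and Tet1 to Brd8 (0.9958), Bex4 and Rnf32. Dnmt3a was closest to Max (0.9776), Castor2 and Rab35, Tet2 to Ptpn3 (0.9878), Chd5 and Snora62, and Tet3 to Lfng (0.9877), Mospd3 and Hp1bp3. For genes high in iPSC alone, r rests on that 1 cell type. Among the 10 themselves, r was highest for Dnmt3l with Lin28a and lowest for Dnmt3b with Tet3 (-0.912).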

How the data were processed

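RNA of 24 samples, 3 of each of 8 cell types, was hybridised to Affymetrix Mouse Gene 1.0 ST arrays. The deposited values are 1 log2 value per probeset and array, and the submitters' processing notes name RMA and Partek 2; the log base was inferred from the range of 3.14 to 14.43, and the chip definition is not given in the sources used here. All 24 deposited columns were used, 0 pairs of arrays were identical, and groups follow the labelled cell type. The number of arrays limits the precision.

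Of 35556 probesets, 21218 carried 1 gene symbol, 1881 several and 12457 none in a platform annotation that can be old; only the first kind was used. The probeset with the highest mean stood for each of 1386 genes with several, which left 18820 genes. The tests used limma (version 3.58.1, R 4.3.3; lmFit, contrasts.fit, eBayes) in 1 fit to all 24 arrays, and p-values were adjusted after Benjamini and Hochberg across all 18820 genes. A call was made at an adjusted p under 0.05 and a log2 difference of at least 1 in size. Errors after ± are standard errors of a difference. The procedure was tested on simulated data.

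The genes, lists and comparisons were chosen with earlier results of these data known. The text names all 10 genes, the 2 highest and 2 lowest differences of each list of pathway genes between iPS-MG and iPSC, and the 3 genes most like each of the 10; further list genes were chosen after their values were seen, and some, among them 1 of the 2 highest let-7 targets, are not reported here. Of marker lists, means are given, and for some also counts. Lists leave out the 10 genes. Alternatives were other scalings, probeset means, a filter on dim genes, no fold minimum, a trend and robust prior, fits to 2 groups, a replicate block and leaving out each array. Sequences are those of RefSeq on GRCm38.p6; protein sequences were not used here.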

Additional observations from a re-analysis of the deposited data

How the results depend on the processing

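Of 110 differences of the 10 genes, none changed direction while called. Centring the arrays moved 40 uncalled differences by more than their standard error, and a second quantile normalization moved 32. Without the 2-fold minimum, counts of called genes rose, as fewer conditions make them do by construction. Counts among the 10 genes are given beside those among all 18820. Against iPSC, 10 of the 10 and 12146 of all genes were called in iPS-MG, and 10 and 12407 in NSC. Between iPS-MG and neo-MG, 0 of the 10 and 40 of all genes were called. Against ad-MG, iPS-MG gave 8 and 7957, and neo-MG 8 and 8338. For neo-MG, the counts were 7 and 11561 against NSC, and 4 and 7772 against bm-Mac. They were 7 and 13624 against p-Mac, and 6 and 8173 against DC. Against bm-Mac, p-Mac gave 8 and 12086, and DC 8 and 8764. With so many of all genes called, these counts are not read as a result about the 10. Centring the arrays added the call of Dnmt1 in neo-MG minus p-Mac, while a second quantile normalization lowered that difference to 0.69, and the cause was not tested. Leaving out 1 array at a time gave 7 to 8 of the 10 genes in NSC minus iPSC, through Tet2, and the same number of the 10 in the other comparisons. With the replicate number as a block, all 110 differences stayed on the same side of the threshold, and Dnmt3a in iPS-MG minus iPSC stayed at 2.39. Deviations of same-numbered arrays correlated between -0.11 and 0.24 over 33 pairs, which share arrays. Correlations between arrays of different numbers were not computed, so these values cannot decide whether the numbers pair the samples. Without detection calls, levels near the low end, such as those of Lin28b outside iPSC and of Mirlet7f-1, have no measured floor.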
